A study of Homo sapiens with 18 samples.

Results

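The genes described here encode the factors that start and extend protein chains on cytosolic ribosomes, together with the enzymes that modify the elongation factors. They are the genes of the fraction table whose symbol begins with EIF and a digit up to 6, or with EEF1 or EEF2. Symbols of eIF5A, the eIF2 kinases and the eIF4E-binding proteins were left out, as were antisense names and pseudogenes. The rule found 58 of 15747 genes, of which 39 encode initiation factors, 6 the subunits of the elongation factors eEF1 and eEF2, 7 a kinase or methyltransferases of the elongation factors, and 6 other proteins whose symbols match. The rule used no measured value.

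The cells were DU145, an established line from a metastatic prostate carcinoma. The groups were whole-cell GC7, whole-cell vehicle, cytoplasmic GC7, cytoplasmic vehicle, polysomal GC7 and polysomal vehicle, each with 3 libraries, and the treated cells had received 40 µM GC7 for 24 h. GC7 inhibits deoxyhypusine synthase, the enzyme that begins the conversion of a lysine of eIF5A to hypusine. All cells of the fractions had also received emetine, which holds ribosomes on mRNA, before lysis, and polysomal RNA came from the heavy part of sucrose gradients. The authors' deposited tables give comparisons and no values per library. The depth of each library is therefore unknown, and no SD between libraries is given. The labels do not say whether replicates were separate cultures, and where they were not, the p-values reflect technical spread between libraries and nothing more. Neither table names its numerator. The category "UP" of the authors was taken to mean higher with GC7, and whole-cell values were given the opposite sign. Every direction given here would turn round on the opposite reading. The epithelial genes KRT8, KRT18, KRT19, EPCAM and CDH1 were measured in both fractions, with a mean normalized count of 41006 for KRT18 in cytoplasm.

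Initiation begins when the cap-binding complex eIF4F brings the small ribosomal subunit to an mRNA. That subunit carries eIF3, eIF1, eIF1A and eIF2 with the initiator tRNA, and it scans to the start codon, where eIF5 triggers hydrolysis of the GTP on eIF2. During elongation, eEF1A delivers aminoacyl-tRNA, the eEF1B subunits recharge eEF1A with GTP, and eEF2 moves the ribosome along the mRNA. Many mRNAs of this machinery begin with a cytosine followed by a run of pyrimidines, the 5′ terminal oligopyrimidine (TOP) motif, through which growth signals control their loading onto ribosomes.

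By mean normalized count, the mRNA of the elongation factor eEF1A1 was the most abundant in polysomes. EEF1A1 had a mean normalized count of 209441 in polysomes and of 183872 in cytoplasm in the authors' deposited table, averaged over GC7 and vehicle libraries, which is rank 1 in polysomes and rank 13 in cytoplasm among 15747 genes. The 58 genes together held 2.36% of the summed counts in polysomes and 2.191% in cytoplasm. Per kb of transcript, elongation factors stood well above initiation factors, with medians of 23456 and 1669 normalized counts per kb in polysomes. EEF1G, the gamma subunit of eEF1B, was the highest at 67251 per kb, followed by EEF1A1 at 59636, EEF1B2, a nucleotide-exchange subunit of eEF1B, at 25510, EIF1 at 22421 and EEF2 at 21403. EIF4A1, the helicase of eIF4F, reached 18843. At the low end stood the cap-binding protein gene EIF4E3 at 40.3 per kb and EEF2K, the kinase that phosphorylates eEF2, at 46.4. Lengths are those of the annotated transcript of each gene, which may not be the form in DU145. They were 3512 bases for EEF1A1 (1389 coding), 1446 for EEF1G (1314 coding) and 9978 for EIF4E3 (675 coding). The order per kb depends on these lengths, and by count EEF1A1 stood above EEF1G, at 209441 against 97246.

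**Figure D1:**
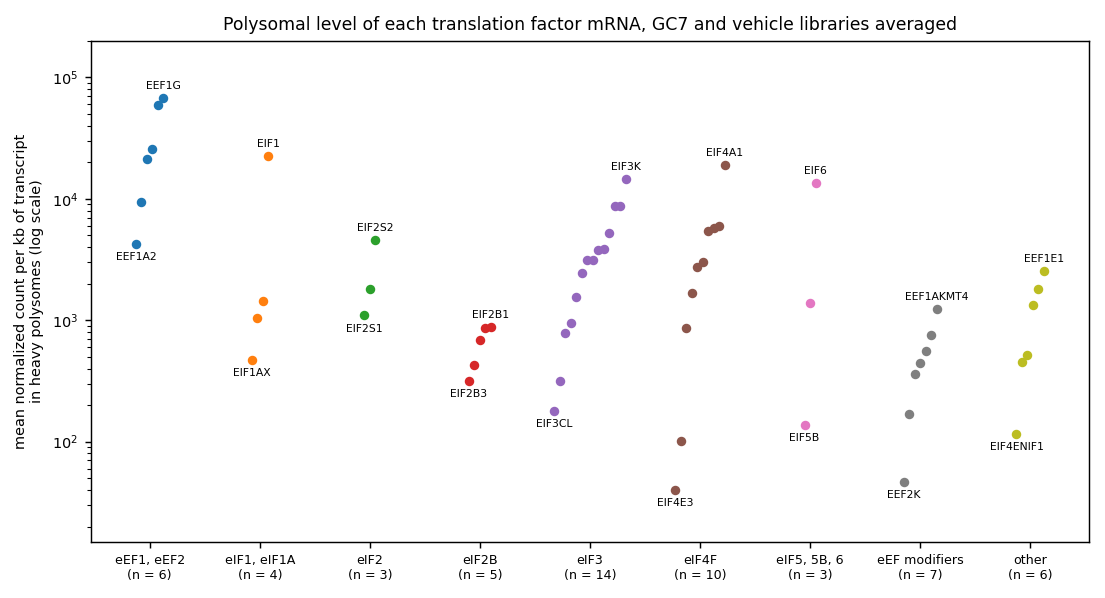
Mean normalized count per kb of transcript in heavy polysomes (log axis) for each of the 58 genes, grouped by complex, with GC7 and vehicle libraries averaged. The elongation factors reach 67251 per kb, while EIF4E3 and EEF2K lie at 40.3 and 46.4.

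In cytoplasmic RNA, 5 of the 58 mRNAs were higher with GC7 at an adjusted p under 0.05, and none was lower. These 5 make 8.62% of the members, against 4.24% of all 15747 genes called in either direction, with 2.29% called higher and 1.95% lower. Among the 4647 genes with a mean normalized count of at least 1000, 5.42% were called. The 5 mRNAs were EIF5, EIF1, EIF1B, EIF3H and EEF2KMT, and 3 of them encode factors that choose the start codon.

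EIF5 encodes the factor that activates the GTPase of eIF2 at the start codon, and lies on chromosome 14 (GRCh38, 103333544 to 103345025). By the authors' deposited table, its mRNA was higher with GC7 by 0.74 on the log2 scale in cytoplasm (SE 0.27, adjusted p = 0.0160) and by 0.37 in polysomes (SE 0.15, adjusted p = 0.0263). It was the only member called in both fractions.

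EIF1, on chromosome 17 (41688885 to 41692668), encodes the small factor that keeps the scanning ribosome from settling on a wrong codon, and EIF1B, on chromosome 3 (40309707 to 40312424), encodes its close copy. The coding sequences were identical at 82.2% of aligned positions. In cytoplasm the authors' deposited table gives 0.44 for EIF1 (SE 0.17, adjusted p = 0.0352) and 0.52 for EIF1B (SE 0.23, adjusted p = 0.0472). In polysomes the authors' deposited table gives 0.03 for EIF1 (SE 0.13, adjusted p = 0.925) and -0.10 for EIF1B (SE 0.13, adjusted p = 0.639), and neither passed the test.

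The start codons of these mRNAs are shown because eIF1 and eIF5 act at the start codon, and because synthesis of both proteins is known to depend on how their own mRNAs are scanned. The lines give the 10 bases before the start codon, the ATG in capitals and the 4 bases after it, from GENCODE v44 (GRCh38), with EEF1A1 and EEF2 for comparison.
EIF1: atcgtatcgtATGtccg
EIF1B: ctagtatcgcATGtcca
EIF5: ataagccaaaATGtctg
EEF1A1: aaaagccaaaATGggaa
EEF2: atccgccaccATGgtga
A favourable context has a purine at position -3 and G at +4, counted with the A of ATG as +1. EIF1 and EIF1B have neither, EIF5 has the purine alone, and EEF1A1 and EEF2 have both. Only 3 of the 58 members (5.17%) had neither base, EIF3B being the third, against 5.69% of 12681 genes of the fraction table with such a transcript. Both bases were present in 48.3% of members and in 46.6% of those genes. An ATG upstream of the start codon was found in 11 members (19.0%), against 40.5% of 12776 genes, and the 5′ UTR of EIF5 held 3.

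EIF3H encodes a subunit of eIF3, the large scaffold on the small ribosomal subunit, and EEF2KMT a lysine methyltransferase of eEF2. In cytoplasm the log2 fold change in the authors' deposited table was 0.46 for EIF3H (SE 0.17, adjusted p = 0.0286) and 0.42 for EEF2KMT (SE 0.17, adjusted p = 0.0423). In polysomes the authors' deposited table gives 0.28 for EIF3H (adjusted p = 0.0808) and 0.09 for EEF2KMT (adjusted p = 0.641), neither of which passed. EEF1A1, at 0.29 in the authors' deposited table (SE 0.12, adjusted p = 0.0958), was the next by adjusted p in cytoplasm.

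Heavy polysomal RNA held 8 called members, with 6 higher and 2 lower with GC7. This is 13.8% of the 58, near the 11.1% called among all 15747 genes and under the 14.8% among the 5934 genes with a count of at least 1000. Background shares by direction were 5.61% higher and 5.48% lower. Those higher were EEF1A2, EIF3D, EEF2, EEF1A1, EIF3L and EIF5, and those lower were the cap-binding protein genes EIF4E2 and EIF4E. No member met the authors' category in either fraction, which also asks for a log2 fold change over 1 in size. In bulk RNA, a change in the number of cells that express a gene and a change in RNA per cell cannot be told apart.

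**Figure D2:**
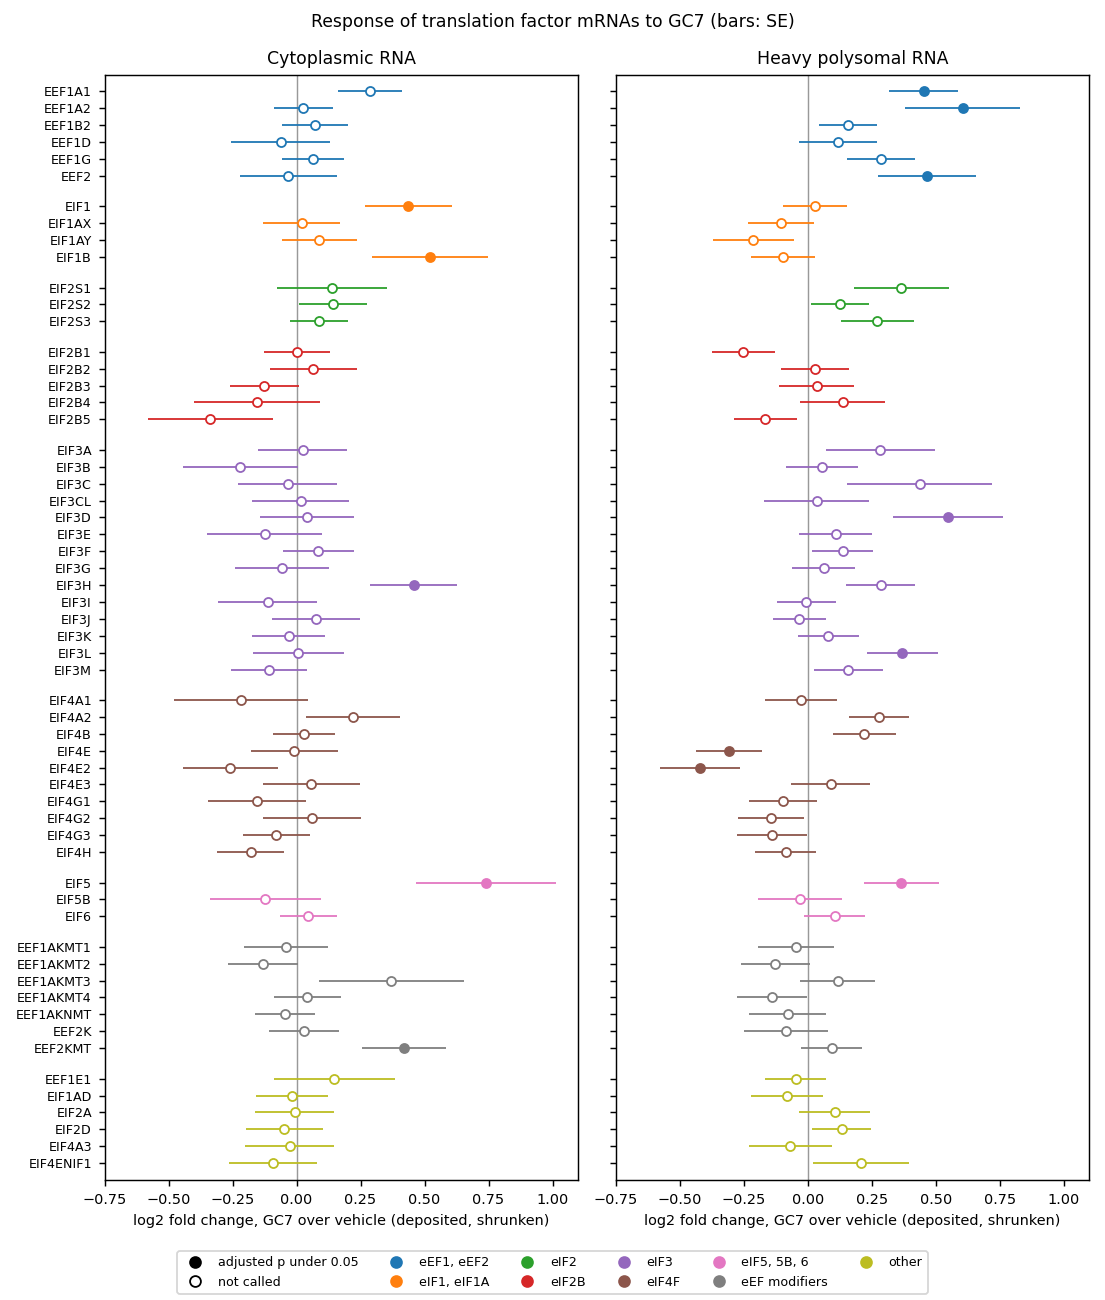
Deposited log2 fold change, GC7 over vehicle, with its SE for the 58 genes in cytoplasm and heavy polysomes, where filled points have an adjusted p under 0.05. There are 5 filled points in cytoplasm, all higher with GC7, and 8 in polysomes, of which EIF4E2 and EIF4E are lower.

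All 6 elongation factor mRNAs had positive log2 fold changes in polysomes, and 3 of them (50.0%) passed the test. Of all 15747 genes, 11.1% were called in polysomes and 5.61% were called higher. Among genes with a count of at least 1000, 14.8% were called. EEF1A1 (chromosome 6, 73489308 to 73525587) was higher by 0.45 in the authors' deposited table (SE 0.14, adjusted p = 0.00377). EEF1A2 (chromosome 20, 63488013 to 63499239), the form of eEF1A that adult muscle and neurons use, was higher by 0.60 in the authors' deposited table (SE 0.22, adjusted p = 0.0103). EEF2 (chromosome 19, 3976056 to 3985463), the translocase, was higher by 0.47 in the authors' deposited table (SE 0.19, adjusted p = 0.0203). The other three encode the eEF1B subunits, and the authors' deposited table gives them 0.29 for EEF1G (adjusted p = 0.0744), 0.16 for EEF1B2 (adjusted p = 0.341) and 0.12 for EEF1D (adjusted p = 0.584). EEF1A1 and EEF1A2 shared 78.0% of aligned coding positions, and how the counting divided reads between them is not given in the sources used here. EEF1A2 stood at 7563 mean normalized counts in polysomes, against 209441 for EEF1A1.

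The deposited fold changes had been shrunken toward 0, more so where their error was larger. Complexes and fractions were therefore set side by side with unshrunken values recovered from them. The median unshrunken log2 fold change in polysomes was 0.43 for the 6 elongation factors and 0.10 for the 39 initiation factors, and it was -0.01 for all genes. It was positive for 6 of 6 elongation factors and for 24 of 39 initiation factors, against 48.5% of all genes. In cytoplasm the medians were 0.07 for elongation and 0.04 for initiation, with 4 of 6 and 22 of 39 positive. The gap between the medians was thus 0.33 in polysomes and 0.02 in cytoplasm. In polysomes it was 0.25 without EEF1A2, 0.22 when eIF3 alone stood for initiation, and 0.48 when eIF3 was left out. No test was made of this gap, since the genes and groups were chosen with results known.

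Values are given next by initiation complex, with no test between complexes. In eIF3, 12 of 14 mRNAs had a positive unshrunken value in polysomes, with a median of 0.20, against 7 of 14 and a median of -0.02 in cytoplasm. Its called members in polysomes were EIF3D (chromosome 22, 36510855 to 36529184), whose product can itself bind the cap of some mRNAs, and EIF3L (chromosome 22, 37848868 to 37889407), a subunit of the eIF3 core. The authors' deposited table has EIF3D higher in polysomes by 0.55 (SE 0.22, adjusted p = 0.0163) and EIF3L by 0.37 (SE 0.14, adjusted p = 0.0202). EIF3C, another core subunit, stood at 0.44 in the authors' deposited table (SE 0.28, adjusted p = 0.0870). Around them, the other subunits of the core had unshrunken polysomal values of 0.44 for EIF3A (SE 0.21), 0.35 for EIF3H (SE 0.14), 0.22 for EIF3M, 0.18 for EIF3F, 0.17 for EIF3E and 0.11 for EIF3K, none of them called in polysomes. The subunits of the module that sits near the mRNA entry side stood lower, at 0.10 for EIF3B, 0.09 for EIF3G and -0.01 for EIF3I. In cytoplasm the lowest eIF3 values were -0.59 for EIF3E and -0.43 for EIF3B, with SE of 0.42 and 0.25. EIF3C and EIF3CL were identical at 99.9% of aligned coding positions, so their separate values are uncertain. Without EIF3CL, 11 of 13 eIF3 mRNAs were positive in polysomes (median 0.18) and 6 of 13 in cytoplasm (median -0.06). The lowest eIF3 value in polysomes was that of EIF3J, a loosely bound subunit, at -0.04 unshrunken (SE 0.12).

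For eIF2, which carries the initiator tRNA, all 3 subunits had positive unshrunken values in polysomes and none passed the test. They were 0.47 for EIF2S1 (SE 0.18), the alpha subunit that stress kinases phosphorylate, 0.34 for EIF2S3 (SE 0.14) and 0.16 for EIF2S2 (SE 0.12). The 5 subunits of eIF2B, the exchange factor that recharges eIF2 with GTP, lay around 0, with a median of 0.05 and a range of -0.31 for EIF2B1 to 0.24 for EIF2B4. None of the eIF2B mRNAs was called in either fraction. Their lowest cytoplasmic values were -0.64 for EIF2B4 (SE 0.40) and -0.52 for EIF2B5 (SE 0.23), the catalytic subunit.

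The 10 mRNAs of eIF4F, its relatives and its cofactors had a median of -0.14 in polysomes, and 3 of them were positive. EIF4E (chromosome 4, 98879276 to 98929133) encodes the cap-binding subunit, and stood lower, at -0.31 in the authors' deposited table (SE 0.13, adjusted p = 0.0454). EIF4E2 (chromosome 2, 232550659 to 232583644) encodes a cap-binding relative that represses translation, and stood lower, at -0.42 in the authors' deposited table (SE 0.16, adjusted p = 0.0165). Within the same complex the helicase paralogs differed in sign, with unshrunken values of 0.33 for EIF4A2 (SE 0.12) and -0.05 for EIF4A1 (SE 0.19). EIF4A2 lay just outside the threshold, with an adjusted p of 0.0520 in the authors' deposited table. The genes of the eIF4G scaffold family, EIF4G1, EIF4G2 and EIF4G3, stood at -0.15, -0.20 and -0.20 and were not called. The helicase cofactors were not called either, with 0.27 for EIF4B (SE 0.13) and -0.12 for EIF4H (SE 0.14).

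EIF5B, which joins the ribosomal subunits, and EIF6, which keeps the large subunit free, had unshrunken polysomal values of -0.08 (SE 0.26) and 0.15 (SE 0.14). The modifiers of elongation factors had a median of -0.14 in polysomes, with none of 7 called and 2 positive. Their values ran from -0.20 for EEF1AKMT4 to 0.19 for EEF1AKMT3, both methyltransferases of eEF1A, and EEF2K stood at -0.18 (SE 0.23). None of the 6 other genes was called in either fraction. Among these are EIF4A3 of the exon junction complex and EEF1E1 of the aminoacyl-tRNA synthetase complex. The highest of them in polysomes was EIF4ENIF1, which carries eIF4E into the nucleus, at 0.34 (SE 0.21).

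**Figure D3:**
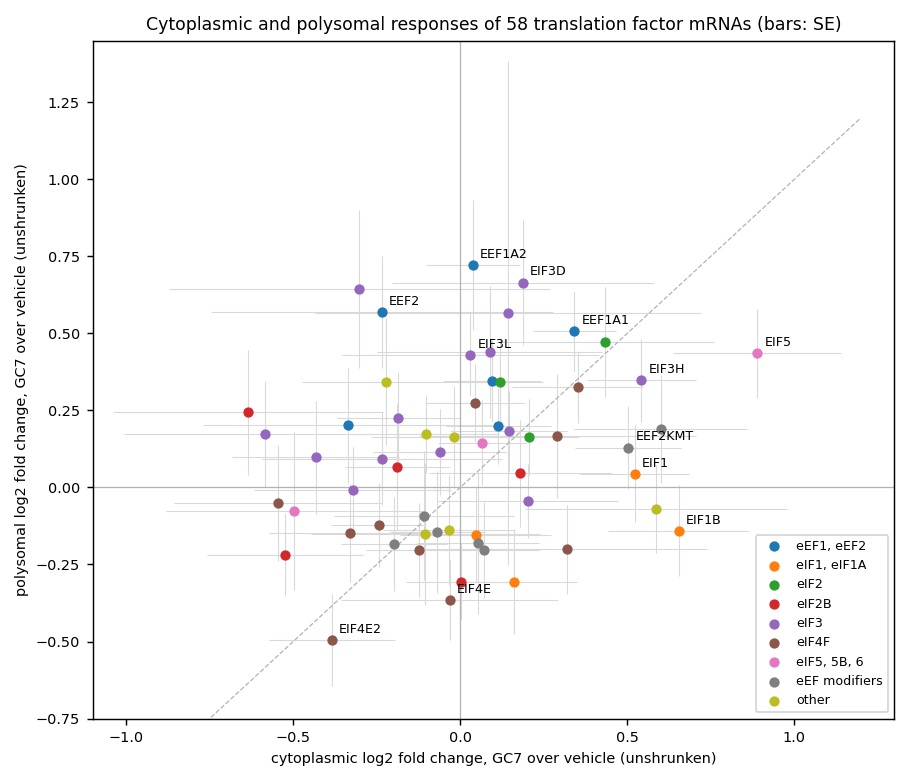
Unshrunken polysomal against cytoplasmic log2 fold change, GC7 over vehicle, for the 58 genes with SE bars, coloured by complex, where the dashed line marks equal responses. EEF1A2 lies above the line, as do EEF2 and EIF3D (which falls below it, at -0.23, with a prior scale 10% smaller, where EEF2 has no value), EIF1 and EIF1B lie below it, and the horizontal bars are often longer than the vertical ones.

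Whether an mRNA responded differently in polysomes and in cytoplasm was tested as the polysomal minus the cytoplasmic unshrunken log2 fold change. No member and no other gene passed adjustment over 15744 genes by this normal test with Benjamini-Hochberg adjustment (0.0% called). At an unadjusted p under 0.05 it found 3 members, against 338 of all genes (2.15%). EIF1B had a difference of -0.79 (SE 0.26, 95% interval -1.30 to -0.29) and EIF1 of -0.48 (SE 0.23, interval -0.92 to -0.03). EEF1A2 had a difference of 0.68 (SE 0.25, interval 0.19 to 1.18). For EIF5 the difference was -0.45 with an interval of -1.02 to 0.12, which includes 0.

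By complex, the difference was negative for 4 of 4 mRNAs of eIF1 and eIF1A, with a median of -0.47. The median was also negative for the 7 modifiers of elongation factors, at -0.23 with 2 positive. For 36 partners and regulators outside the rule it was -0.10, with 15 positive. The 6 of them that act in scanning or resemble eIF5 had -0.20, with 1 positive. For eIF2B the median was 0.26, with 3 of 5 positive. EIF1AX and EIF1AY make up the pair of eIF1A genes, and they were identical at 92.2% of coding positions, so their values are uncertain. In eIF3 the difference was positive for 12 of 14, with a median of 0.38. Without EIF3CL, 11 of 13 were positive, with a median of 0.35. For elongation factors the difference was positive for 6 of 6, with a median of 0.39. The median over all genes was 0.01, with 51.0% positive. Among genes with a mean normalized count of at least 1000 in both fractions it was 0.06, with 59.4% positive. Positive differences were also found for 44 of 60 ribosomal protein genes whose transcripts begin with the TOP motif (median 0.10). The 5 epithelial genes named above were all positive, with a median of 0.73. With the fitted prior scale 10% smaller, EEF2 and a pair of eIF3 mRNAs lost their value, the medians were 0.24 for elongation (5 of 5 positive) and 0.22 for eIF3 (9 of 12 positive), and EEF1D moved to 1.80, against 0.54. With deposited fold changes the medians were 0.20 and 0.18, and the signs kept their counts. The errors were larger in cytoplasm: the unshrunken SE was larger there for 50 of 58 members (86.2%) and for 85.1% of all genes, with member medians of 0.23 in cytoplasm and 0.15 in polysomes. For EEF2 and EIF3C the cytoplasmic SE was 0.51 and 0.57, so their differences of 0.80 and 0.95 have intervals of -0.26 to 1.87 and -0.28 to 2.17.

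The starts of the transcripts are shown next, since 5 of the 6 members called higher in polysomes had a feature there that the rule had not used, with EIF5 the exception. The lines give the first 20 bases of the MANE transcript in GENCODE v44 (GRCh38), all within the 5′ UTR, with the unbroken run of pyrimidines from a first C in capitals.
EEF1A1: CTTTTTCgcaacgggtttgc
EEF1A2: CCCTCTggctgagacctcgg
EEF2: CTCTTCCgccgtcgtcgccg
EIF3D: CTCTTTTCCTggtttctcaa
EIF3L: CTTTCCggcggtgctcgcaa
EIF5: agtcagagcgagaacattcc
EIF4E: gtgcgatcagatcgatctaa
EIF4E2: actccctgaggcagtggcga
EIF1: gccccagtcactgagccgcc
A first C followed by at least 4 pyrimidines, called a TOP start here, was present in 20 of 58 members (34.5%), against 694 of 12776 genes (5.43%). It is a description of the annotated start, which may not be the start used in DU145. This feature was chosen after the values had been seen, and no test was made of it.

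The 20 members with a TOP start had a median unshrunken log2 fold change of 0.33 in polysomes, and all 20 were positive. Of these, 5 were called higher and none lower (25.0%, against 11.1% of all genes called and 5.61% higher). The other 38 had a median of -0.07 with 15 positive, and of these EIF5 was called higher and EIF4E and EIF4E2 lower. In cytoplasm the medians were 0.04 with a TOP start and -0.01 without. Among initiation factors the polysomal median was 0.34 for the 13 with a TOP start, all positive, and -0.05 for the other 26, of which 11 were positive. Of these 13, 10 encode eIF3 subunits, so the grouping by start largely overlaps the grouping by complex. These 10 include both EIF3C and EIF3CL, whose separate values are uncertain. Within eIF3 the median was 0.39 for the 10 with a TOP start and 0.04 for the other 4, and outside eIF3 it was 0.33 for 3 and -0.10 for 22. Among elongation factors 5 of 6 had a TOP start, with a median of 0.51, and EEF1G, whose transcript starts with A, stood at 0.35. The 696 genes of the fraction table with a TOP start, these members and 2 genes without a MANE transcript included, had a polysomal median of 0.03, with 377 positive, 51 called higher and 31 lower. The 60 ribosomal protein genes among them, the best-known TOP mRNAs, had a median of 0.06, with 39 positive and 1 called higher. EEF1G is among 8 members listed as reported TOP mRNAs whatever their annotated start. The polysomal median of those 8 was 0.27, with all 8 positive and 2 called higher.

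**Figure D4:**
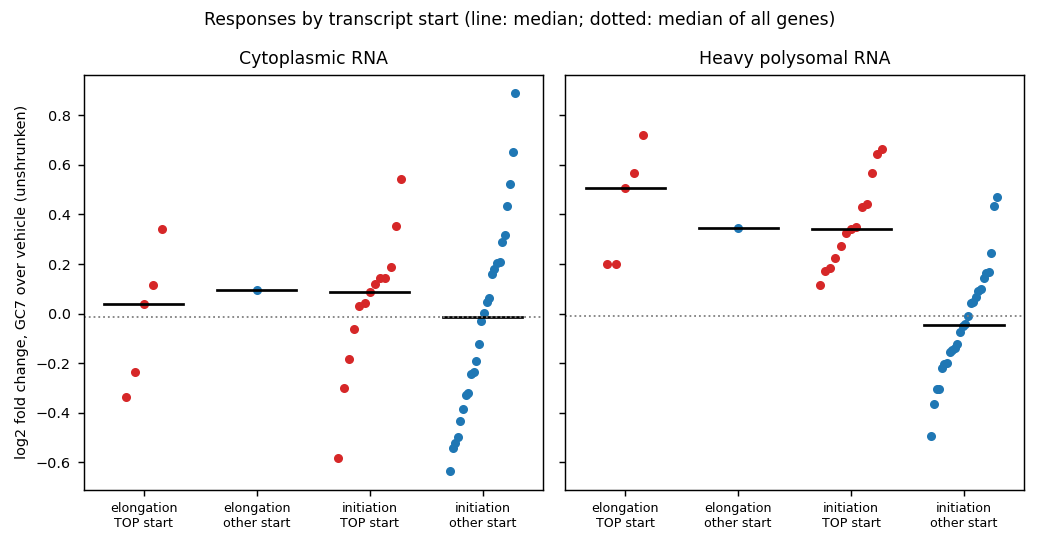
Unshrunken log2 fold change, GC7 over vehicle, in cytoplasm and polysomes for elongation and initiation factor mRNAs with and without a TOP start, where lines are group medians and the dotted line is the median of all genes. In polysomes the 13 initiation factors with a TOP start have a median of 0.34, and the other 26 a median of -0.05.

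The members also differed in how their level in polysomes compared with that in cytoplasm, with GC7 and vehicle libraries averaged. The 2 fractions were normalized in a way that the sources used here do not state, so only the order of these ratios among genes is read. The median ratio of the mean normalized counts was 1.25 for members and 1.42 for all genes. EIF4E was the highest at 3.52, followed by EIF1B at 2.31, and EIF4G2 had 2.02. The lowest were EIF5B and EIF3CL at 0.20, then EIF3C at 0.59, EIF3E at 0.67 and EIF3A at 0.71. The ratios of EIF3CL and EIF3C depend on how reads were divided between these near-identical copies, which is not given in the sources used here. EIF4G2 is the member whose annotated start codon is not ATG but GTG.

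**Figure D5:**
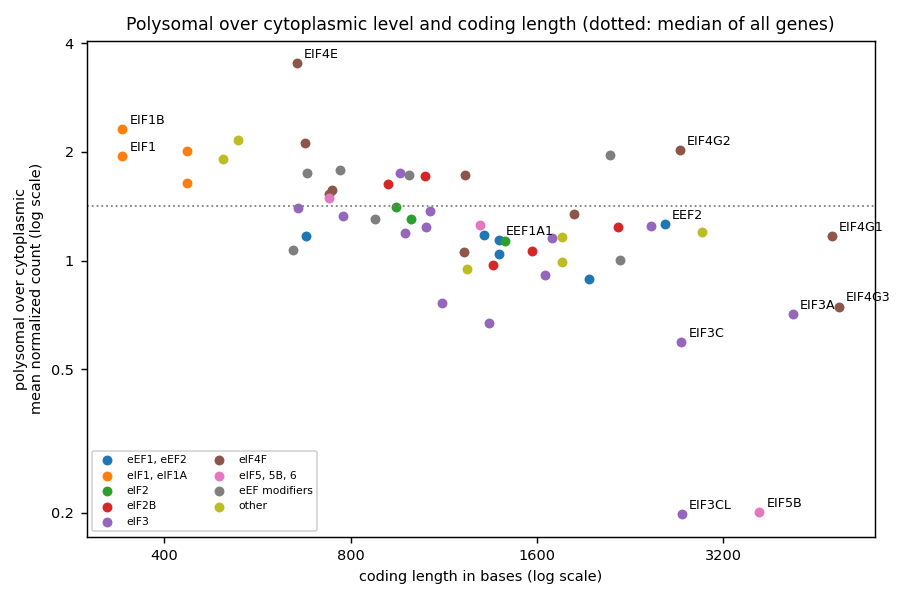
Ratio of polysomal to cytoplasmic mean normalized count against coding length for the 58 genes (log axes), where the dotted line is the median of all genes, 1.42. EIF4E lies highest at 3.52, and EIF5B and EIF3CL lie lowest at 0.20, where the value of EIF3CL is uncertain.

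Whole-cell RNA showed no called member. Every whole-cell fold change below has the sign of the authors' deposited table reversed. That reversal was chosen from the correlation with the fractions, so signs shared with the fractions are not independent of it. Judged by the authors' deposited table, 0 members reached an unadjusted p under 0.05, against 3.11% of 14099 genes shared with the fraction table, and after Benjamini-Hochberg adjustment 0.0% of those genes passed. The smallest p among members in the authors' deposited table was that of EIF1, at 0.78 on the log2 scale (unadjusted p = 0.0579). Of the other members called higher in a fraction, the authors' deposited table gives positive whole-cell values of 0.11 for EIF5, 0.22 for EEF2KMT, 0.19 for EEF1A2, 0.41 for EEF2 and 0.48 for EIF3D, with none passing. Negative values, opposite in sign to the fraction, were -0.26 for EEF1A1, -0.07 for EIF1B, -0.09 for EIF3H and -0.28 for EIF3L in the authors' deposited table. As in polysomes, EIF4E (-0.42) and EIF4E2 (-0.14) were negative in the authors' deposited table. Values were read for 56 members. EIF4A1 carries a value that 18021 genes of that table share, so it was left out, and EEF1AKNMT, listed by its synonym METTL13, had -0.26 in the authors' deposited table and was not counted. Of the 56 values 27 were positive, and the median over all 56 was -0.02. EEF1B2, EEF1D, EEF2K and EIF3K each have a further whole-cell entry that was not counted. That of EEF1D was -0.14 in the authors' deposited table, opposite in sign to the counted 0.08. The others had the sign of the counted value.

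The partners and regulators of these factors that the rule leaves out, 36 genes, had unshrunken medians of 0.02 in cytoplasm and -0.03 in polysomes. In cytoplasm 3 were called higher and 2 lower (13.9%, against 4.24% of all genes), and in polysomes 5 higher and 4 lower (25.0%, against 11.1%). EIF5A, the gene of the factor that carries hypusine, was lower in both fractions, with -0.39 in cytoplasm in the authors' deposited table (SE 0.16, adjusted p = 0.0486). Its polysomal value in the authors' deposited table was -0.44 (SE 0.14, adjusted p = 0.00410). PABPC1, the poly(A)-binding protein whose mRNA is itself of the TOP class, was higher in polysomes by 0.58 in the authors' deposited table (SE 0.13, adjusted p = 6.48e-05). PPP1R15A, which directs a phosphatase to eIF2 alpha, was higher in the authors' deposited table by 0.60 in cytoplasm (SE 0.23, adjusted p = 0.0235) and by 1.03 in polysomes (SE 0.14, adjusted p = 6.9e-13). Of the eIF4E-binding proteins, which hold eIF4E off the eIF4G scaffold, the authors' deposited table has EIF4EBP1 at 0.39 in polysomes (SE 0.16, adjusted p = 0.0331) and EIF4EBP2 at -0.52 (SE 0.15, adjusted p = 0.00250). MKNK1, a kinase of eIF4E, stood in the authors' deposited table at -0.66 in cytoplasm (adjusted p = 0.0110) and at -0.51 in polysomes (adjusted p = 0.00328), lower in both. MKNK2, also a kinase of eIF4E, was instead higher in polysomes, by 0.33 in the authors' deposited table (adjusted p = 0.0495). It was not called in cytoplasm. PDCD4 was higher in cytoplasm, by 0.52 in the authors' deposited table (adjusted p = 0.00687). EIF5A2 stood in the authors' deposited table at -0.66 in polysomes (adjusted p = 0.0249). IMPACT was higher in both fractions, by 0.51 and 0.42 in the authors' deposited table (adjusted p = 0.0206 and 0.0331).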

How the data were processed

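Per the file headers, the authors' whole-cell table gives a log2 fold change (base read from the values) and a p-value per gene for 44682 genes. The fraction table lists 15747 genes. For cytoplasm and for polysomes it holds a log2 fold change with SE, p-values before and after adjustment, and a mean normalized count, which is a signal the authors deposited, read as averaged over the 6 libraries of a fraction. The submitters' processing notes name STAR 2.7.8a and Salmon 1.4.0, with no role given, and GRCh38 as the build. The whole-cell values as deposited had a Spearman correlation of -0.27 with cytoplasm and of -0.38 with polysomes over 13980 genes, so their sign was reversed.

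Calls use the deposited adjusted p-value under 0.05. The planned count models need values per library and were not run. Fold changes of the fractions had been shrunken before deposit. A Cauchy prior (natural log scale 0.197 for cytoplasm and 0.203 for polysomes) was fitted so that recovered z matched those of the deposited p-values, within 0.1 for 99.7% and 99.8% of genes. Differences between fractions used these unshrunken values, with errors taken as independent and 3 genes off by over 0.5 left out. The procedure was run on data simulated with the same form of prior and independent errors, so that run could not test either assumption. The z of the difference had an SD of 0.86 over all genes, under the 1 expected of exact, independent errors with no gene differing. Python 3.11.15, SciPy 1.17.1 and pandas 2.3.3 were used. Transcripts and gene coordinates are those of GENCODE 44.

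Genes named are all elongation factors, every called member and, per complex, those with the highest count and the highest and lowest polysomal value, with others chosen after their values were seen. The members and lists were chosen with earlier results of these data known. Alternatives covered the threshold, the prior scale, correlated errors, a count filter and the centring.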

Additional observations from a re-analysis of the deposited data

How the results depend on the processing

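No paired analysis was possible because the deposited tables hold no values per library, and for the same reason leaving out replicates was not run. In cytoplasm, 0 members were called at an adjusted p under 0.01 or by the authors' category, in place of 5. In polysomes, 1 was called at 0.01 (EEF1A1), 13 at 0.1 and 0 by the category, in place of 8. EIF4A2 also passed there when the authors' p-values were adjusted anew by Benjamini-Hochberg, at 0.0493 over all genes and 0.0432 over genes with a count of at least 100. For polysomal minus cytoplasmic responses, 1 member was called with errors correlated at 0.5 (EIF1B, adjusted p = 0.0239, against 0.171 to 1.00 under its other settings), when 25 of all genes were called, and 3 stood at an unadjusted p under 0.05, in place of 0 adjusted. With the prior scale 10% smaller, 109 of 13445 genes and none of the members were called, EIF2S1 turned to -0.036 and EIF3D to -0.23. With deposited fold changes EIF4A2 turned to 0.058. The gap between elongation and initiation factors kept its sign with deposited fold changes, with means, without EEF1A2, and with eIF3 alone or left out. Centring cannot change this gap, and it was not recomputed with other prior scales or the count filter. In cytoplasm the medians lay close together, at 0.07 for elongation and 0.04 for initiation, so the sign there says little. The error of the cytoplasmic values limits the differences between fractions.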

Other observations

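Factors of mitochondrial translation, which serve the ribosomes inside mitochondria and have relatives among the cytosolic factors, were also measured (12 genes). In cytoplasm 4 of the 12 were higher with GC7 and none was lower (33.3%, against 4.24% of all genes called and 2.29% higher). GFM1, a mitochondrial elongation factor G, was higher by 1.01 in the authors' deposited table (SE 0.32, adjusted p = 0.00514), followed by GFM2, its recycling relative, at 0.60, GUF1 at 0.56 and the initiation factor MTIF2 at 0.55. In polysomes 3 of the 12 were higher (25.0%, against 11.1% of all genes called and 5.61% higher), with 0.86 for MTIF2 (SE 0.14, adjusted p = 3.43e-08), 0.44 for GUF1 and 0.43 for GFM2 in the authors' deposited table. The unshrunken medians of the 12 were 0.00 in cytoplasm and 0.14 in polysomes. These genes lie outside the 58 and were listed with earlier results known.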
